A study of Mus musculus with 6 samples.

Results

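The 10 genes described here carry the interferon signal through the cell membrane and switch it off again. They are interferon beta (Ifnb1), the receptor chains Ifnar1, Ifnar2, Ifngr1 and Ifngr2, the Janus kinases Jak1, Jak2 and Tyk2, and the inhibitors Socs1 and Usp18. They were chosen by symbol, and all 10 were listed among the 23406 gene symbols of the tables. All 10 also passed the filter on low values, which kept 12266 genes with at least 1 FPKM (fragments per length of transcript, scaled to the sequencing depth) in at least 2 of the 6 libraries. Ifnb1 passed that filter only through the KO and MUT libraries, in which it was highest, so members are counted below without it.

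The cells were mouse embryonic fibroblasts given OSKM, the set of factors that reprograms fibroblasts towards pluripotent stem cells, and were collected on day 7. KO cells were Adar1 Fl/Fl (both alleles floxed) and received 4OHT (hydroxytamoxifen), with 2 libraries. WT cells had the same Fl/Fl genotype and received vehicle, with 2 libraries. MUT cells were Adar1 Fl/E861A and received 4OHT, with 1 library, and HET cells were Fl/E861A with vehicle, also with 1 library. E861A is a substitution in the catalytic domain of ADAR1, which converts adenosines of double-stranded RNA into inosines, and it removes the editing activity. MUT cells therefore combine the loss of the floxed allele with the remaining E861A allele, and HET cells carry E861A beside an intact allele. All 4 groups received OSKM, no library of 4OHT-treated cells without a floxed allele was analysed here, and the labels name neither the recombinase nor the deleted exons. Whether the libraries of a pair stem from separate cultures is not stated, so the p-values rest on a spread that may be technical.

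Type I interferons, interferon beta among them, bind IFNAR1, which holds the kinase TYK2, and IFNAR2, which holds JAK1. Interferon gamma binds IFNGR1, which holds JAK1, and IFNGR2, which holds JAK2. The kinases phosphorylate STAT proteins, which switch on interferon-stimulated genes, and some of these genes in turn code for brakes. SOCS1 blocks the kinases, and USP18 both removes the ubiquitin-like protein ISG15 from its targets and binds IFNAR2, where it displaces JAK1. Unedited double-stranded RNA is known to be sensed by MDA5 (Ifih1), a sensor that leads to interferon beta production.

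The libraries held an estimated 15400000 to 19000000 fragments each. Adar, counted over the whole gene, stood at 34.2 and 31.3 FPKM in the KO libraries, against 19.6 and 19.5 FPKM in the WT libraries. It stood at 33.0 FPKM in MUT and 17.0 FPKM in HET. A level over the whole gene does not check the deletion. Fibroblast markers had a summed level of 2325 and 2341 FPKM in KO, 4003 and 3719 FPKM in WT, 2976 FPKM in MUT and 3636 FPKM in HET, and 5 of their 7 genes fell in KO. Vim and Thy1 were not called. Vim made up most of the KO and MUT sums, at 1720 and 1842 FPKM in KO, 1728 and 1737 FPKM in WT and 1632 FPKM in MUT. Among those that fell, Col1a1 stood at 267 and 198 FPKM in KO, against 1383 and 1192 FPKM in WT. Dcn stood at 6.12 and 6.89 FPKM in KO, against 58.4 and 62.1 FPKM in WT. The 6 pluripotency markers were all lower in KO, and their summed level was 22.2 and 13.2 FPKM in KO, 409 and 343 FPKM in WT, 24.7 FPKM in MUT and 473 FPKM in HET. Nanog, under 1 FPKM in KO and MUT, passed the filter on low values only through the vehicle libraries, so no call is read from it. The 5 markers of plasmacytoid dendritic cells, strong interferon producers, summed to 1412 and 1556 FPKM in KO, 709 and 641 FPKM in WT, 1195 FPKM in MUT and 565 FPKM in HET. That sum was mostly Bst2, itself an interferon-stimulated gene, while Siglech was listed at 0 in all 6 libraries. The 7 myeloid markers summed to 442 and 457 FPKM in KO, 675 and 660 FPKM in WT, 451 FPKM in MUT and 815 FPKM in HET, mostly from a row that Cd68 shares with Eif4a1, and Ptprc, Csf1r and Adgre1 were under 1 FPKM in every library. Laptm5 fell in KO, to 3.31 and 2.83 FPKM against 23.4 and 19.9 FPKM in WT, with 5.88 FPKM in MUT and 36.7 FPKM in HET. Lyz2, on a row shared with Lyz1, stood at 5.59 to 18.7 FPKM and Tyrobp at 0.918 to 4.17 FPKM, and neither was called. The 4 endothelial markers summed to 3.66 to 7.09 FPKM, and among them Kdr was higher in KO while Pecam1 and Tek were lower. Kdr passed the filter on low values only through its high KO and MUT libraries, and Pecam1 only through WT 1 and HET. Tek was under 1 FPKM in both KO libraries, so no call is read from these genes. The part that these shifts in markers play in the results below was not tested. In these bulk samples, fewer cells of a type and less RNA per cell cannot be told apart.

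The transcript of the ligand, Ifnb1, was listed in 5 of the 6 libraries and at 0 in HET. Its level was 2.91 and 1.29 FPKM in the KO libraries, against 0.102 and 0.347 FPKM in the WT libraries. MUT held 1.56 FPKM. Both KO libraries and MUT were thus above 1 FPKM and all vehicle libraries below it, and the KO pair itself differed by more than the whole level in WT. On the 750-base transcript these levels correspond to an estimated 30.5 and 13.5 fragments in KO, 0.96 and 3.12 fragments in WT, and 13.3 fragments in MUT. The transcript was therefore detected in KO and MUT cells and lay near single fragments in WT cells. Rounded and pooled, the 44 KO fragments against 4 WT fragments give a ratio of 9.69 after division by depth, with an exact 95% interval of 3.53 to 37.1 that rests on estimated fragments and covers counting error only.

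On the log2(FPKM + 1) scale, which understates changes of low genes, Ifnb1 was 1.30 ± 0.22 higher in KO (SE, n = 2 each). Its limma adjusted p was 0.00062 after the filter on low values, which it passed through its high libraries, and 0.0548 with no filter, so no call is read from it. With a pseudocount of 0.1 the difference was 2.77. MUT exceeded HET by 1.36 with a pseudocount of 1 and by 4.06 with 0.1, without a test. The gene lies on chromosome 4 of GRCm38 at 88522025 to 88522794, minus strand, and codes for the secreted protein. Of the other interferon genes, 20 were listed and 16 stood at 0 in all 6 libraries. None of the 20 reached 1 FPKM. The highest value was 0.425 FPKM for Ifnz, an interferon zeta gene, in KO 1, beside 0.233 FPKM in KO 2, 0.190 and 0 FPKM in WT, 0.212 FPKM in MUT and 0.114 FPKM in HET. Ifna4, an interferon alpha gene, was listed at 0.144 and 0.289 FPKM in KO, 0.186 FPKM in MUT, and 0 in both WT libraries and HET. Those Ifna4 values are an estimated 0.988, 1.99 and 1.03 fragments, so its detection hangs on single fragments.

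Promoter sequence from the RefSeq table (build GRCm38.p6) was matched for 9 of the 10 genes, all but Usp18. The sequences of Ifnb1 and Socs1 are shown because, of the 9, they held matches to the IRF core, AANNGAAA, the letters that interferon regulatory factors bind. The first is the minus strand of chr4:88522855-88523044, bases -250 to -61, and the second the minus strand of chr16:10785537-10785786. In Ifnb1 the capitals mark 3 IRF core matches and 2 matches to the NF-kB motif GGGANNNNCC, and in Socs1 they mark the run formed by matches to the IRF core and to the ISRE core GAAANNGAAA.
Ifnb1 promoter: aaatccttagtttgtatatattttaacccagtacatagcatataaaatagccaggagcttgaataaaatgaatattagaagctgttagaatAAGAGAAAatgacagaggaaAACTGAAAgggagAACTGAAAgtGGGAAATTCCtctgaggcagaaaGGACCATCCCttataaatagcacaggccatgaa
Socs1 promoter: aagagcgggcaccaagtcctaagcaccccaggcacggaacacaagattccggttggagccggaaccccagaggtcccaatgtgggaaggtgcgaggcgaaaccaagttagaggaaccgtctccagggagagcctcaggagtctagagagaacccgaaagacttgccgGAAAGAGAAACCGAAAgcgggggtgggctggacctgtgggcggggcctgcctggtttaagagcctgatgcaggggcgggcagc
Positions count back from the transcript start, at the first base of the match. The IRF core matches of Ifnb1 begin at -159, -139 and -126, and its NF-kB matches at -116 on the coding strand and -93 on the other. In Socs1 the ISRE core begins at -83 and -77 and the IRF core at -81 and -75, so these matches overlap each other. Both strands of the 250 bases before the start were searched. The IRF core was held by 2 of the 9 members and 21.3% of all 32851 promoters, and the ISRE core by 1 of the 9 and 2.98%. The NF-kB motif was held by 3 of the 9 (Ifnb1, Tyk2 and Ifngr2) and 17.6%, and the interferon gamma-activated sequence TTCNNNGAA by 1 of the 9 (Ifnar2) and 7.02%. These matches describe letters and show no binding.

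**Figure D1:**
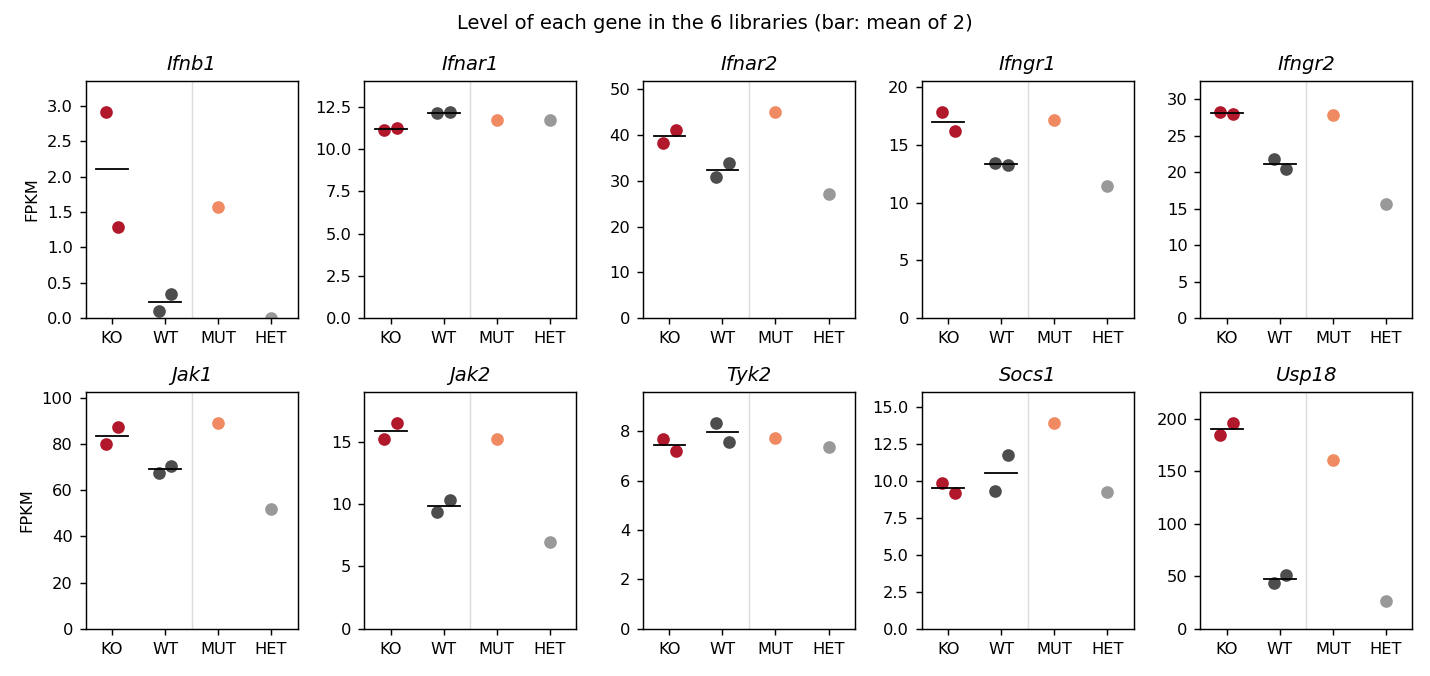
Level in FPKM (vertical axis, starting at 0, one scale per panel) of each of the 10 genes in KO, WT, MUT and HET; points are libraries and bars the mean of 2. Usp18 stands at 185 and 196 FPKM in KO and 161 in MUT, against 43.7 and 51.8 in WT and 26.3 in HET, whereas Ifnar1 lies between 11.1 and 12.2 FPKM in all 6 libraries.

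Among the receptor chains, 3 of 4 rose in KO and Ifnar1 did not pass the test, beside 57.7% of all tested genes called, 29.5% higher and 28.2% lower. Ifnar1, which holds TYK2, stood at 11.1 and 11.2 FPKM in KO, 12.1 and 12.2 FPKM in WT, 11.7 FPKM in MUT and 11.7 FPKM in HET. Both KO libraries lay below both WT libraries, yet the difference on the log2(FPKM + 1) scale was -0.11 ± 0.10 (SE; limma, adjusted p = 0.354) with a 95% interval of -0.33 to 0.11. Ifnar2, the chain that USP18 binds, stood at 38.3 and 41.1 FPKM in KO, 30.8 and 33.9 FPKM in WT, 45.0 FPKM in MUT and 27.1 FPKM in HET. Both 4OHT groups were above both vehicle groups, and the KO minus WT difference was 0.29 ± 0.10 (limma, adjusted p = 0.0303). It was called in 9 of 13 alternatives (limma adjusted p 0.00539 to 0.197), and the call was lost without WT 1 (0.197) and without KO 2 (0.113).

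Both chains of the interferon gamma receptor moved by similar amounts in KO. Ifngr1, which binds the ligand, stood at 17.8 and 16.1 FPKM in KO, 13.4 and 13.2 FPKM in WT, 17.1 FPKM in MUT and 11.4 FPKM in HET. Ifngr2, which holds JAK2, stood at 28.2 and 28.0 FPKM in KO, 21.9 and 20.5 FPKM in WT, 27.9 FPKM in MUT and 15.6 FPKM in HET. For either gene the KO and WT libraries did not overlap and MUT lay within or near the KO values. The differences were 0.33 ± 0.10 for Ifngr1 (limma, adjusted p = 0.0179) and 0.39 ± 0.10 for Ifngr2 (limma, adjusted p = 0.00521). Ifngr1 lost its call without WT 1 (limma adjusted p = 0.0682), without WT 2 (0.085) and without KO 1 (0.108), whereas Ifngr2 kept its call under each of 13 alternatives. Ifnar1, Ifnar2 and Ifngr2 are neighbours on chromosome 16, at 91485215 to 91510522, 91372783 to 91405587 and 91547094 to 91564007 on the plus strand, and of these Ifnar1 alone was not called.

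Of the kinases, Jak2 rose most, Jak1 rose by less, and Tyk2 did not pass the test. Jak2, which serves the interferon gamma receptor and several cytokine receptors, stood at 15.2 and 16.5 FPKM in KO, 9.32 and 10.3 FPKM in WT, 15.2 FPKM in MUT and 6.92 FPKM in HET. All 4OHT libraries exceeded all vehicle libraries, with KO at 1.62 times the WT mean and MUT at 2.20 times HET. The KO minus WT difference was 0.64 ± 0.10 on the log2 scale (limma, adjusted p = 0.000406), and it was called under each of 13 alternatives.

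Jak1, shared by both interferon receptors, was the most abundant kinase, at 80.0 and 87.2 FPKM in KO, 67.6 and 70.6 FPKM in WT, 89.2 FPKM in MUT and 51.7 FPKM in HET. Its groups did not overlap, and its difference was 0.27 ± 0.10 (limma, adjusted p = 0.0339). It was called in 7 of 13 alternatives, and the call was lost without WT 1 (limma adjusted p = 0.173), without WT 2 (0.0903) and without KO 2 (0.14). Tyk2, the partner of IFNAR1, stood at 7.66 and 7.17 FPKM in KO, 8.34 and 7.56 FPKM in WT, 7.72 FPKM in MUT and 7.37 FPKM in HET. Its KO and WT values overlapped, and the difference of -0.09 ± 0.11 (limma, adjusted p = 0.507) had a 95% interval of -0.32 to 0.15. Ifnar1 was thus the receptor gene and Tyk2 the kinase gene that were not called, beside 57.7% of all tested genes called. No result is read from their pairing.

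Of the brakes, Usp18 was called and Socs1 was not. Usp18 rose to 185 and 196 FPKM in KO, against 43.7 and 51.8 FPKM in WT, which is 3.99 times the WT mean. It stood at 161 FPKM in MUT, against 26.3 FPKM in HET, or 6.13 times. Usp18 was the highest of the 10 genes in KO and MUT, whereas Jak1 was the highest in WT and HET. The KO minus WT difference was 1.98 ± 0.11 (limma, adjusted p = 1.78e-07, 95% interval 1.74 to 2.22), and it was called under each of 13 alternatives. The gene lies on chromosome 6 at 121245906 to 121270917, plus strand.

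Socs1 stood at 9.82 and 9.20 FPKM in KO, against 9.28 and 11.8 FPKM in WT. MUT held 13.9 FPKM, against 9.23 FPKM in HET. Its KO and WT libraries overlapped, while MUT was the highest of all 6 libraries. The KO minus WT difference was -0.12 ± 0.12 (limma, adjusted p = 0.408, 95% interval -0.40 to 0.15), and without WT 2 it was 0.03 (limma adjusted p = 0.867). Socs1 lies on chromosome 16 at 10783809 to 10785536, minus strand, directly after the promoter printed above.

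The genes nearest to Usp18 in pattern over the 6 libraries were Ifi44, Ifit1 and Herc6, by the root mean square difference of centred log2(FPKM + 1) among 8690 genes. Their distances were 0.08, 0.12 and 0.13. Ifi44 and Ifit1 are interferon-stimulated genes, and Herc6 codes for the mouse ligase that attaches ISG15. Ifi44 stood at 141 and 141 FPKM in KO, 35.0 and 40.9 FPKM in WT, 138 FPKM in MUT and 20.8 FPKM in HET. Nearest to Jak2 were Lamp2, a lysosomal membrane protein, Rhoq, a small GTPase, and Wls, which carries Wnt proteins to the surface, at distances of 0.05, 0.05 and 0.06. Nearest to Socs1 were Rbms3, Plekhh2 and Tram2, at 0.07, 0.09 and 0.09. These genes were picked for their likeness, so the distances carry no test.

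Counted together without Ifnb1, 6 of 9 genes were called higher in KO and none lower (limma, adjusted p under 0.05), against 29.5% and 28.2% of all genes tested. Both KO libraries exceeded both WT libraries in 6 of the 9, against 40.9% of all genes, and lay below both in 1, Ifnar1, against 38% of all genes. The median difference was 0.29 over the 9 and 0.02 over all genes tested. With 57.7% of genes called in either direction, 6 of 9 is close to the background share.

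**Figure D2:**
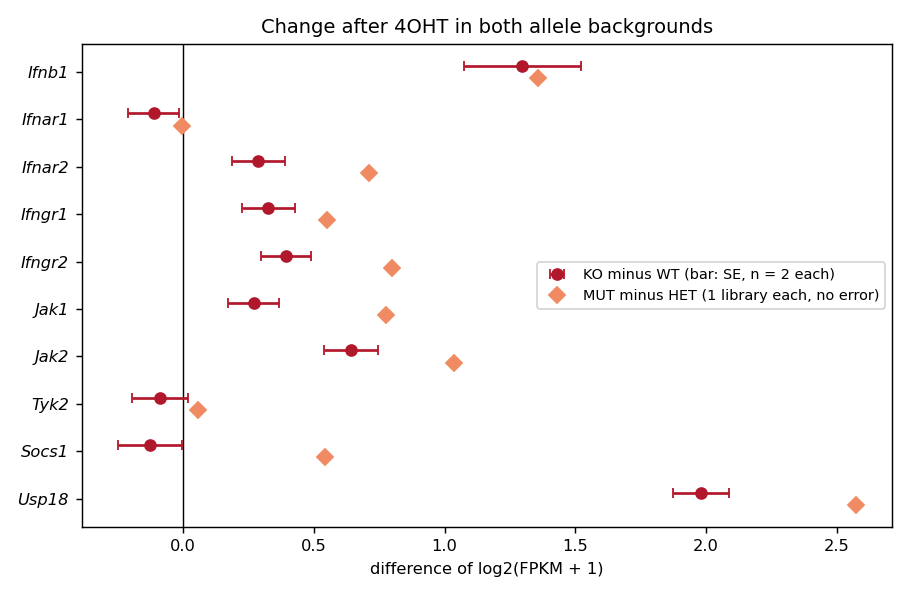
Difference of log2(FPKM + 1) (horizontal axis) for each gene (vertical axis): circles with SE bars are KO minus WT (n = 2 each) and diamonds MUT minus HET (1 library each, no error). Usp18 is farthest to the right at 1.98 and 2.57, Ifnar1 and Tyk2 sit near 0 in both, and Socs1 is at -0.12 in KO minus WT and 0.54 in MUT minus HET.

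The MUT and HET libraries ask what 4OHT treatment changed where the remaining allele codes for the editing-dead enzyme. With 1 library in each group, the values have no replicate check. MUT was higher than HET in 8 of the 9 genes other than Ifnb1, against 50.6% of all genes. A 2-fold or larger difference on this log2 scale was reached by Usp18 (2.57), Ifnb1 (1.36) and Jak2 (1.04), which is 2 of 9 without Ifnb1, against 4.93% of all genes. None of the 10 was 2-fold lower in MUT, against 8.77% of all genes. The remaining differences were 0.80 for Ifngr2, 0.78 for Jak1, 0.71 for Ifnar2, 0.55 for Ifngr1, 0.54 for Socs1 and 0.06 for Tyk2, and Ifnar1 stood at 11.7 FPKM in both libraries.

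The difference between both effects, (MUT minus HET) minus (KO minus WT), was called for none of the 10 genes (limma, adjusted p of at least 0.124). The 5 genes at an unadjusted p under 0.05 were Socs1 at 0.67 (limma adjusted p = 0.125), Usp18 at 0.59 (0.124), Jak1 at 0.51 (0.141), Ifnar2 at 0.42 (0.24) and Ifngr2 at 0.41 (0.241). Among all genes tested, 492 (4.01%) were called and 2118 had an unadjusted p under 0.05. The 95% interval was 0.20 to 1.14 for Socs1 and 0.18 to 1.01 for Usp18, without adjustment. With a replicate left out, the Usp18 value was 0.55 without KO 1, 0.63 without KO 2, 0.71 without WT 1 and 0.47 without WT 2. For Socs1 these values ranged between 0.51 (without WT 2) and 0.83 (without WT 1). For Jak1 they ranged between 0.44 (without KO 1) and 0.57 (without KO 2). Each such fit left a lone library in 1 more group, so no call is read from it. The spread in this comparison came from the KO and WT pairs alone, and MUT and HET were assumed to vary like them. In the same test 4 of 7 fibroblast markers were called: Col1a1 at 1.12 (limma adjusted p = 0.0357), Dcn at 1.01 (0.0125), Col1a2 at 0.99 (0.0206) and Pdgfrb at 0.78 (0.0406), and their part in these values was not tested.

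HET was the lower of the vehicle groups for these genes, without a test. It lay below both WT libraries in all 9 genes other than Ifnb1, against 39.1% of all genes, and above both in none, against 41.8%, with HET minus WT at -0.83 for Usp18, -0.45 for Jak2, -0.42 for Ifngr2 and -0.41 for Jak1. MUT lay above both KO libraries in 5 of the 9, against 34.6% of all genes, below both in 3, against 44.7%, and between them in 1. Socs1 had the largest positive MUT minus KO difference of the 10 genes, 0.51, and for the others it ranged between -0.24 (Usp18) and 0.18 (Ifnar2). HET is the base of MUT minus HET, so the low HET values enter that difference directly.

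Because FPKM is per length, levels of different genes can be set against each other within a library. The ratio of Ifnar2 to Ifnar1 was 3.45 and 3.66 in KO, 2.54 and 2.79 in WT, 3.85 in MUT and 2.31 in HET. The ratio of Jak2 to Tyk2 was 1.99 and 2.30 in KO, 1.12 and 1.36 in WT, 1.97 in MUT and 0.940 in HET. In both ratios every 4OHT library exceeded every vehicle library. Jak1 to Tyk2 followed the same order, at 10.4 and 12.2 in KO, 8.10 and 9.35 in WT, 11.6 in MUT and 7.02 in HET. Jak1 to Jak2 had the opposite order, at 5.25 and 5.28 in KO, 7.25 and 6.86 in WT, 5.85 in MUT and 7.47 in HET. The share of all gene pairs separated in this way was not counted. Ifngr2 to Ifngr1, within one receptor, was 1.58 and 1.74 in KO, 1.63 and 1.55 in WT, 1.63 in MUT and 1.37 in HET, so KO and WT overlapped. Usp18 to Socs1 was 18.8 and 21.3 in KO, 4.71 and 4.40 in WT, 11.6 in MUT and 2.85 in HET. In that ratio of the brakes, MUT lay between KO and WT. Usp18 to Ifnar2, the brake against the chain it binds, was 4.83 and 4.77 in KO, 1.42 and 1.53 in WT, 3.58 in MUT and 0.971 in HET.

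**Figure D3:**
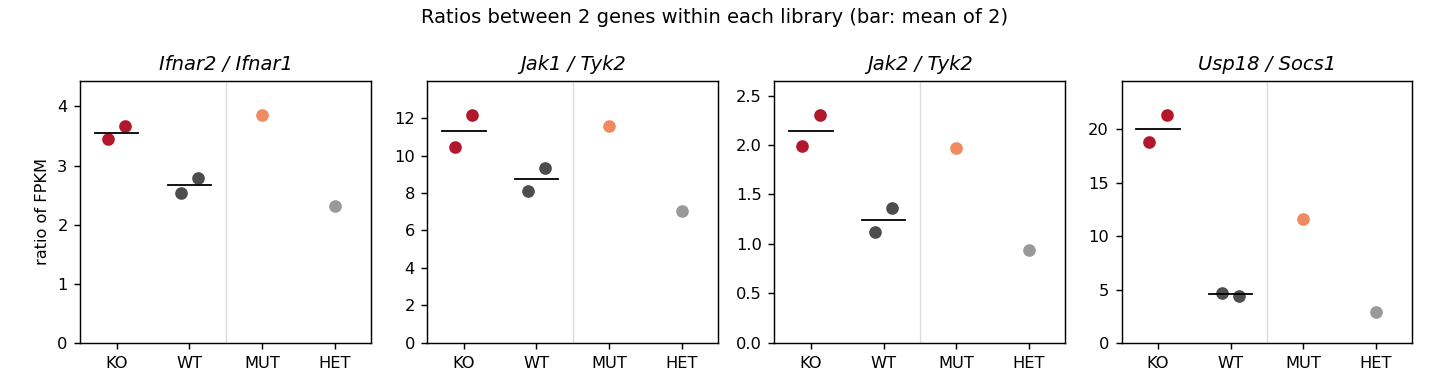
Ratio of FPKM between 2 genes within each library (vertical axis, starting at 0) for KO, WT, MUT and HET, with points for libraries and bars for the mean of 2. Usp18 to Socs1 is 18.8 and 21.3 in KO, 11.6 in MUT, 4.71 and 4.40 in WT and 2.85 in HET, and in all 4 panels the 4OHT libraries lie above the vehicle libraries. Ifngr2 to Ifngr1, which overlaps, Jak1 to Jak2, which has the opposite order, and Usp18 to Ifnar2 are not drawn.

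Genes around these 10 were counted in the same limma fit of KO against WT. Of the 12 tested STAT and IRF transcription factor genes, 8 rose and 4 were not called, against 29.5% of all genes higher and 28.2% lower. Irf9, among those that rose, was measured on a row shared with Rnf31. Irf5, also counted as risen, stood at 1.04 and 0.870 FPKM in WT. It passed the filter on low values mainly through KO and MUT, in which it was highest. With the kinase Jak3, which stood on the same list, the median difference was 0.60. Irf1 stood at 46.3 and 42.0 FPKM in KO, 17.0 and 18.2 FPKM in WT, 44.7 FPKM in MUT and 13.4 FPKM in HET (difference 1.28; limma adjusted p = 2.33e-06). Irf7, which amplifies interferon production, differed by 1.18 (limma adjusted p = 4.9e-06) and Stat2 by 1.04 (8.92e-06). Jak3, a kinase of blood cell cytokine receptors, fell, on a row shared with Insl3 (-0.93; limma adjusted p = 3.49e-05).

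The ISG15 cycle, in which USP18 is the enzyme that removes the tag, had all 5 tested genes called higher, against 29.5% of all genes, with a median of 1.39. Isg15, the tag itself, stood at 962 and 1155 FPKM in KO, 321 and 293 FPKM in WT, 886 FPKM in MUT and 203 FPKM in HET (1.78; limma adjusted p = 6.22e-07). Herc6, the ligase, differed by 1.93 (limma adjusted p = 5.13e-07), Ube2l6, the conjugating enzyme, by 1.39 (1.87e-06), Trim25, a further ligase, by 0.64 (0.000339) and Uba7, the activating enzyme, was also called. Usp41, also on this list, was not found by its symbol and so was not analysed.

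Among the genes that lead to interferon beta production, 5 of 10 rose and 1 fell, with a median of 0.31. That is 6 called of 10, close to the 57.7% of all genes. Eif2ak2, which rose, shared its row with Sult6b1, and Dhx58, which was not called, shared its row with Kat2a. Ifih1, a sensor of double-stranded RNA, stood at 35.2 and 35.5 FPKM in KO, 9.05 and 12.4 FPKM in WT, 30.7 FPKM in MUT and 6.15 FPKM in HET (1.65; limma adjusted p = 2.57e-06). Zbp1, a sensor of Z-form nucleic acid, rose by 2.06 (limma adjusted p = 1e-07), the RNA sensor Ddx58 by 1.09 (5.67e-06) and Traf3, an adaptor, by 0.67 (0.000311). Tmem173, the DNA-sensing adaptor STING, fell by 0.79 (limma adjusted p = 0.000116), with 17.5 and 14.9 FPKM in KO, against 29.1 and 28.3 FPKM in WT, and its MUT value of 30.9 FPKM lay near the 28.5 FPKM of HET.

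Of the other brakes, 5 of 17 rose, 5 fell and 7 were not called, close to the 29.5% higher and 28.2% lower of all genes, with a median of -0.04. Socs6 stood at 29.7 and 31.7 FPKM in KO, against 18.6 and 18.3 FPKM in WT (0.70; limma adjusted p = 0.000128), and Socs5, Socs4 and the phosphatase Ptpn11 rose by 0.50, 0.52 and 0.44. Socs2, a brake of growth hormone signalling, fell to 13.4 and 12.9 FPKM in KO, against 26.2 and 27.9 FPKM in WT (-0.99; limma adjusted p = 1.24e-05). The phosphatase Ptpn6, best known from blood cells, is counted among the 5 that fell. It differed by -1.46 at low levels, 0.487 and 0.217 FPKM in KO and 2.97 and 2.47 FPKM in WT. It passed the filter on low values only through WT and HET, in which it was highest, so no call is read from it. Pias3, an inhibitor of STAT3, fell by 0.50 (limma adjusted p = 0.00238), and the adaptor Sh2b3 by 0.29 (0.041), a call that was lost without WT 1 (0.189), without WT 2 (0.0846) and without KO 2 (0.258).

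Receptors of related cytokines that also signal through Janus kinases split as well, with 4 of 9 tested higher, 3 lower (29.5% and 28.2% of all genes) and a median of -0.12. Il10rb, shared by interleukin and interferon lambda receptors, stood at 12.4 and 13.6 FPKM in KO, 6.88 and 6.57 FPKM in WT, 9.83 FPKM in MUT and 6.25 FPKM in HET (0.86; limma adjusted p = 5.44e-05). Osmr, Il4ra and Ghr, the receptors of oncostatin M, interleukin 4 and growth hormone, rose by 0.72, 0.63 and 0.53. Il11ra1 fell by 1.35 (limma adjusted p = 1.07e-05), Il6ra by 0.59 (0.0017) and Lifr, a receptor of leukaemia inhibitory factor, by 0.34 (0.0286). The Lifr call was lost without WT 2 (limma adjusted p = 0.15), without KO 1 (0.069) and without KO 2 (0.0841). The pluripotency and fibroblast markers fell in the same comparison, and their part in these lists was not tested.

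**Figure D4:**
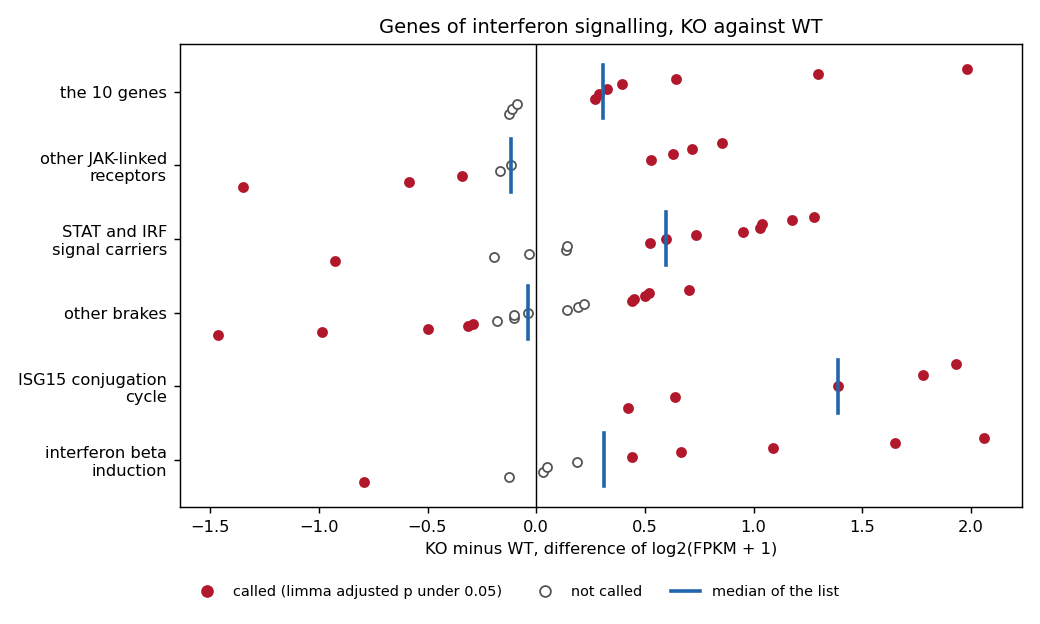
Difference of log2(FPKM + 1), KO minus WT (horizontal axis), for the 10 genes and the genes of each pathway list (lists down the vertical axis); filled points are called by limma, open points are not, and lines mark the list's median. All 5 genes of the ISG15 cycle lie to the right, around a median of 1.39, whereas the other brakes spread to both sides of -0.04.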

How the data were processed

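Ribosome-depleted total RNA was sequenced, per the labels' protocols. Each deposited table gives, per the file headers, 1 FPKM value for a gene row, written with a decimal comma. Because of the commas this unit was recorded as other than a plain FPKM column, and the deposited values were read with the comma as the decimal point. The submitters' processing notes name Cufflinks 2.2.1, TopHat2 2.1.1 and Bowtie2 2.3.0 with GRCm38. Annotation, strand and any scaling of libraries are not stated there.

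Unnamed rows, 1021 in each table, did not enter the tests (8.26% to 14.2% of FPKM per library). Of 314 symbols on more than 1 row, the row of highest mean was kept. Groups were taken from the sample titles. The log2(FPKM + 1) values were fitted in R 4.3.3 by limma 3.58.1 (trend, two-sided, Benjamini-Hochberg over 12266 genes, called under 0.05), with KO against WT on 4 libraries and the difference of effects on 6. MUT against HET had no test; 2-fold was the threshold. Leaving out a replicate leaves a lone library that is assumed to vary like the others. The fit was run on simulated data with known upward changes. There all libraries were given a spread taken from the KO and WT pairs, so the assumption about MUT and HET was not tested. Depth is not stated: fragments were estimated from the smallest steps of FPKM times length over 3913 single-transcript genes, taking fragments as 200 bases long. The replicates differed by more than counting noise (median chi-square per gene of 1.56 in KO and 1.23 in WT, against 0.455). Coordinates are those of the files, 1-based, and promoters come from RefSeq.

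The genes and lists were chosen with earlier results of these data known. 1 gene that the naming rule picked is not reported here by name. All 10 were described; from each list up to 4 called genes of smallest p in each direction were named, and for Usp18, Jak2 and Socs1 the 3 most alike genes whose mean FPKM reached 5. Alternatives covered the pseudocount (0.1), the filter, the scaling (median of ratios, quantile), the row of a symbol, the prior, the libraries in the fit, the replicate block and each replicate left out.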

Additional observations from a re-analysis of the deposited data

Results flagged for a closer look

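The difference between the allele backgrounds was called in none of the 10 genes (5 at an unadjusted p under 0.05), but it was called in 8 of the 54 tested genes of the surrounding lists (14.8%, against 4.01% of all genes), of which 7 are reported here, by limma's test of (MUT minus HET) minus (KO minus WT) on log2(FPKM + 1). The difference of effects was 1.10 for Il6st, the shared signalling chain of the interleukin 6 receptors (limma adjusted p = 0.00484), which stood at 51.5 and 52.7 FPKM in KO, 58.6 and 58.8 FPKM in WT, 123 FPKM in MUT and 63.8 FPKM in HET. It was 1.10 for Stat5a (limma adjusted p = 0.00575), at 25.8 and 25.5 FPKM in KO, 23.3 and 23.2 FPKM in WT, 21.5 FPKM in MUT and 8.61 FPKM in HET. In Il6st the high library was MUT, and in Stat5a the low library was HET. In Il13ra1, Irf7, Uba7 and Stat2, HET lay below both WT libraries and MUT above both KO libraries. Irf7 stood at 44.1 FPKM in HET, 74.8 and 73.4 FPKM in WT, 187 FPKM in MUT and 182 and 157 FPKM in KO. In Tmem173 the low libraries were KO, at 17.5 and 14.9 FPKM, while MUT (30.9 FPKM) and HET (28.5 FPKM) were alike. The difference was 0.95 for Il13ra1 (limma adjusted p = 0.0295), 0.90 for Tmem173 (0.0248), 0.88 for Irf7 (0.0241), 0.78 for Uba7 (0.0374) and 0.75 for Stat2 (0.0377).

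In the same test 4 of 7 fibroblast markers were called (Col1a1, Col1a2, Pdgfrb and Dcn, at differences of 0.78 to 1.12), and their part was not tested. Every one of these calls rests on 1 MUT and 1 HET library. All 7 were lost with no filter on low values (limma adjusted p 0.117 to 0.216). Without WT 1, Irf7 (limma adjusted p = 0.0895), Stat2 (0.0698), Tmem173 (0.0794) and Uba7 (0.0981) were lost. Without WT 2, Il13ra1 (0.0835), Irf7 (0.0815), Stat2 (0.129), Tmem173 (0.0706) and Uba7 (0.106) were lost by the same limma test. Stat2 and Uba7 also lost their calls with the prior without trend. Outlying replicates were not searched for, since no group has more than 2 libraries.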

How the results depend on the processing

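Usp18, Jak2 and Ifngr2 were called higher in KO under each of 13 alternatives (highest limma adjusted p 0.00432, 0.0147 and 0.0473), and Ifnar1, Tyk2 and Socs1 under none. The count of members called, 7 with Ifnb1 included, was 4 with no filter on low values and ranged between 4 and 6 when a replicate was left out; beside the losses given above, Ifnar2 was not called with quantile normalization (limma adjusted p = 0.0853) or no filter (0.0663), and Jak1 not with quantile normalization (0.14), no filter (0.054) or the prior without trend (0.0502). The count called in the difference of effects, 0, was 1 with quantile normalization (Usp18, limma adjusted p = 0.0427), 3 with the replicate block (Jak1, Socs1 and Usp18) and 0 to 2 when a replicate was left out. The sign changed for Socs1 in KO minus WT (0.0322 without WT 2, -0.28 to 0.03 over the replicates left out), for Il13ra1 (0.0291 without WT 2, -0.26 to 0.03) and for Ifnb1 in the difference of effects (0.06 as reported, 1.29 with a pseudocount of 0.1, -0.15 with quantile normalization, -0.32 to 0.45 over the replicates left out; -0.08 without WT 2). The causes were not tested. Sh2b3 and Lifr were each called in 8 of 13 alternatives. Across all genes the count called was 5739 to 7959 (7080 as reported), and 46.6% to 55.7% of calls were higher. Scaling moved the median of all genes to at most 0.06. With the replicate block, 7959 genes and 7 members, Ifnb1 included, were called in KO against WT; same-numbered libraries of the 2 pairs share only a number (correlation of deviations 0.183), so the block is an alternative only. HET lay below both WT libraries in 9 members with quantile normalization.

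With 1 to 2 libraries a group, small differences could not be resolved, such as those of Ifnar1, Tyk2 and Socs1 in KO against WT. Ifnb1 in WT lay at the limit of what this depth can show, and fragments per gene are estimates.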
